A study of Mus musculus with 33 samples.

Results

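Meis1, Meis2, Meis3, Pbx2, Pbx3 and Pbx4 are 6 mouse genes for homeodomain transcription factors, taken here by name as partners of the Hox proteins, and all 6 were among the 17120 genes of the count table. RNA had been measured in 33 libraries of mouse embryonic stem cells that carry the ScxGFP reporter, in which Scx, a transcription factor of tendon progenitors, is read out as green fluorescence. Paraxial mesoderm (PM, taken at D6) was made from them with LDN-193189, which blocks BMP receptors, and CHIR, which activates Wnt signalling. Thereafter all dishes received FGF2, TGFβ1 and the hedgehog agonist SAG. To these was added either CD1530, which activates the gamma form of the retinoic acid receptor, or AGN 193109 (AGN), which holds the retinoic acid receptors in their repressive state. Each condition was sampled at D6.25 (0.25 days with the ligand), D6.75 (0.75 days), D7.5 (1.5 days), D8.5 (2.5 days) and D10 (4 days), and the 11 groups had 3 libraries each. The study describes its replicates as biological and its cells as coming from several ScxGFP+ lines, but the line behind each library is not given in the sources used here. The study's methods also describe a PM phase with AGN or all-trans retinoic acid added to it, without saying which form of it gave the PM cells of these libraries. There was no culture with neither ligand after D6, so each difference between conditions is agonist against inverse agonist.

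The Meis and Pbx proteins belong to the TALE class of homeodomain proteins, named for a loop of extra residues between the first helices of the homeodomain. Pbx proteins bind DNA together with Hox proteins of the anterior and central paralog groups, and Meis proteins bind Pbx and hold it in the nucleus, so that the complex selects sites that a Hox protein alone reads poorly. Meis genes are well known as genes that retinoic acid turns on in limb buds and in neural and mesodermal cultures, and the Hox clusters of the embryonic axis respond to the same signal.

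On GRCm38, Meis1 lies at chr11:18879817-19018985 and Meis2 at chr2:115863064-116065839, both on the minus strand, and Meis3 lies at chr7:16175090-16186504 on the plus strand. Pbx2 is at chr17:34591266-34597400 on the plus strand, Pbx3 at chr2:34171457-34373142 on the minus strand and Pbx4 at chr8:69832491-69872292 on the plus strand. All 6 are protein-coding, and their annotated exons, merged over transcripts, cover 10.53, 12.04, 3.17, 3.64, 6.11 and 2.22 kb in the same order. Of the exon bases of Pbx2, 6.24% are shared with Gpsm3, a gene of the same strand that is counted in the table. Of those of Meis1, 8.51% lie under Gm16140 on the opposite strand and 9.77% under the unclassified model Gm37818 on its own strand. The strand setting of the counting is not given in the sources used here, so reads from these stretches cannot be assigned with certainty.

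Within each family the coding sequences are alike, which matters for reads that could be counted for the wrong paralog. The most alike 120 coding bases of the 3 Meis genes (bases 889 to 1008 of the longest Meis1 coding sequence in GENCODE M21, 901 to 1020 of Meis2 and 868 to 987 of Meis3) hold the codons of the homeodomain helix that contacts DNA. They are printed 5′ to 3′ with the bases that differ from Meis1 in capitals, 17 in Meis2 and 17 in Meis3.
Meis1: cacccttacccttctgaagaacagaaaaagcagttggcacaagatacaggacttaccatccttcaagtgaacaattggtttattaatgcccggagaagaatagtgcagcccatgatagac
Meis2: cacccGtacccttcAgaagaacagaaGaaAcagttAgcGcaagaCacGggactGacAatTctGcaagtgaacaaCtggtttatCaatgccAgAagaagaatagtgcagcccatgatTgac
Meis3: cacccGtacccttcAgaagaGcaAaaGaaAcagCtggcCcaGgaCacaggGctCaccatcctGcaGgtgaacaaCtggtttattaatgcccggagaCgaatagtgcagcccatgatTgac
The stretch chosen in the same way for Pbx2, Pbx3 and Pbx4 is printed with the bases that differ from Pbx2 in capitals, 19 in Pbx3 and 18 in Pbx4.
Pbx2: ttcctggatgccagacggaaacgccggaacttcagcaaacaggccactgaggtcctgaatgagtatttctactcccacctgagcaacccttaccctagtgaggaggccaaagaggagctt
Pbx3: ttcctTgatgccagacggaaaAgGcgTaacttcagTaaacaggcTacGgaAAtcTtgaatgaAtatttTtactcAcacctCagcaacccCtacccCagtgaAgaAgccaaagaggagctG
Pbx4: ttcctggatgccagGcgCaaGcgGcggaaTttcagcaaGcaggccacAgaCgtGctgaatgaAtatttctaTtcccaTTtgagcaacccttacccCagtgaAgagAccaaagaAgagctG
The longest identical run of coding bases was 28 within the Meis genes, between Meis2 and Meis3, and 20 within the Pbx genes, between Pbx2 and Pbx4. No stretch of 50 bases occurred in the annotated transcripts of more than 1 of the 6 genes, so a read of that length without errors has 1 possible source among them.

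The 250 bases before the RefSeq transcription start (GRCm38.p6) were read for 5 of the 6 genes (no entry was used for Pbx3). They were searched on both strands for AGGTCA, a half-site of nuclear receptors such as the retinoic acid receptors, for TGACAG, a Meis type motif, and for TGATNNAT, a Pbx-Hox type motif. None of the 5 windows held any of the 3 motifs, which occurred in 14%, 15.9% and 7.68% of all 32851 windows of the same length. This says only that these letters are not in these windows. The parts outside annotated exons are given, 5′ to 3′ on the strand of the gene, for the genes that were called between conditions at D10, 234 bases for Meis1 (chr11:19018986-19019219), 80 for Meis2 (chr2:116064722-116064801) and 250 for Pbx2 (chr17:34592009-34592258). Those of Meis2 and Pbx2 lie inside the genes as GENCODE draws them, in introns. GC content was 60.3%, 47.5% and 77.6%. No base is in capitals because none matched a motif.
Meis1: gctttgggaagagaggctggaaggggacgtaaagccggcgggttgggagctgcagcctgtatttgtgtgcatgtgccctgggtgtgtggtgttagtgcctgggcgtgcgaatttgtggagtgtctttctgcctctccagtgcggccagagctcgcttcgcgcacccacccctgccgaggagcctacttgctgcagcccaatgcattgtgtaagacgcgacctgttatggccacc
Meis2: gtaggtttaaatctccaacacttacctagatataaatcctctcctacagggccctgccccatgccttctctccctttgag
Pbx2: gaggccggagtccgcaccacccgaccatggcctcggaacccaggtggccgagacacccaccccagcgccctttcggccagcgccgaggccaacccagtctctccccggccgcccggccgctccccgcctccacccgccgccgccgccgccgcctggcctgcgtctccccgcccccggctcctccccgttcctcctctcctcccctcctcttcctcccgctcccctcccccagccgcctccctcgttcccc

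Levels are in CPM, read counts scaled to library size after TMM, and log2 fold changes as estimate ± standard error with an adjusted p from edgeR's quasi-likelihood F test over all 17120 genes. Genes with an adjusted p under 0.05 are spoken of as called. Library totals ran from 17.1 M to 22.8 M except for AGN D8.5 replicate 1, which had 38.1 M, and no replicates of a group held identical values. The counts behind the members ran from 35 reads for Pbx4 to 3810 for Pbx2. As a check of the labels, Dhrs3, a retinoid-metabolising enzyme that the receptors induce, was at 236 CPM in CD1530 and 7.7 CPM in AGN at D10. CD1530 D6.75 replicate 1 stood apart from its replicates: its chi-square per gene against them was 20.3 and 21.5, where all other pairs of replicates lay between 1.58 and 4.76. The paraxial mesoderm markers (7 of 8 in the table) were detected in PM, none of them at the counting floor of 3 reads. Their sum of 57.3 to 61.3 CPM was lower than in later groups, where it reached 143 to 146 CPM in CD1530 at D8.5. Most of that rise was Meox1, at 5.91 CPM in PM and 131 CPM in CD1530 at D8.5. Between these groups Tbx6 went from 9.56 to 0.249 CPM, Msgn1 from 3.38 to 0.0197, Dll3 from 23.8 to 2.24 and Dll1 from 15 to 10.2. Hes7 read 0.573 and 0.619 CPM, and Mesp2 0.686 and 0.916 CPM. The 5 pluripotency markers summed to 2340 to 2360 CPM in PM, among them Pou5f1 at 701 CPM, Nanog at 466 CPM and Sox2 at 536 CPM, which are genes of another state than the label. The tendon list at D10 summed to between 22000 and 35700 CPM with none of 8 at that floor.

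Meis2 had the largest difference between the conditions of the 6 genes at every time point. In PM it measured 14.8, 14.3 and 11.3 CPM in the 3 libraries. With CD1530 the libraries read 26.0, 24.9 and 26.2 CPM at D6.25, then 41.0, 46.0 and 46.2 CPM at D6.75. They read 65.1, 64.8 and 63.4 CPM at D7.5, 96.6, 98.9 and 95.5 CPM at D8.5 and 104.6, 101.3 and 107.5 CPM at D10. Each CD1530 group lay above the one before it with no shared values. With AGN the libraries read 18.0, 17.5 and 17.8 CPM at D6.25, 22.6, 21.4 and 17.3 CPM at D6.75 and 14.4, 14.0 and 14.0 CPM at D7.5. They read 11.5, 8.92 and 8.16 CPM at D8.5 and 10.1, 8.43 and 10.6 CPM at D10. The AGN libraries were thus low throughout, with their highest values at D6.75, and at no time did the conditions overlap.

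The log2 fold change of Meis2 in CD1530 over AGN began at 0.53 ± 0.087 (adjusted p = 1.34e-04) at D6.25 and reached 1.11 ± 0.081 (9.27e-14) by D6.75. On D7.5 and D8.5 it was 2.19 ± 0.086 (1.31e-22) and 3.30 ± 0.088 (1.29e-28). At D10 it was 3.43 ± 0.098 (1.31e-28), a 10.8-fold difference with a 95% interval of 9.37 to 12.3. Of all genes, 1.34% had a larger absolute log2 fold change at D10 and 3.8% at D6.25. In bulk cultures, fewer cells of a type and less RNA per cell cannot be told apart, for Meis2 as for the genes that follow.

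Against PM, Meis2 differed in direction between the conditions by D10. It rose by 2.95 ± 0.086 on the log2 scale in CD1530 (adjusted p = 6.95e-29) and fell by 0.478 ± 0.111 in AGN (adjusted p = 1.67e-04). The fall in AGN was not present from the start: at D6.25 Meis2 was higher than in PM by 0.395 ± 0.096 (adjusted p = 4.27e-04), then fell between D6.75 and D7.5 by 0.539 ± 0.094 and between D7.5 and D8.5 by 0.522 ± 0.102 (adjusted p = 1.69e-05 and 5.7e-05). From D8.5 to D10 the estimate in AGN was -0.018 with an interval of -0.248 to 0.211. In CD1530 the first 4 steps were each called, at 0.925, 0.789, 0.536 and 0.591, and the step from D8.5 to D10 was not (0.107, adjusted p = 0.181), though it was with the compared groups alone in the fit (0.128, 0.00115).

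**Figure D1:**
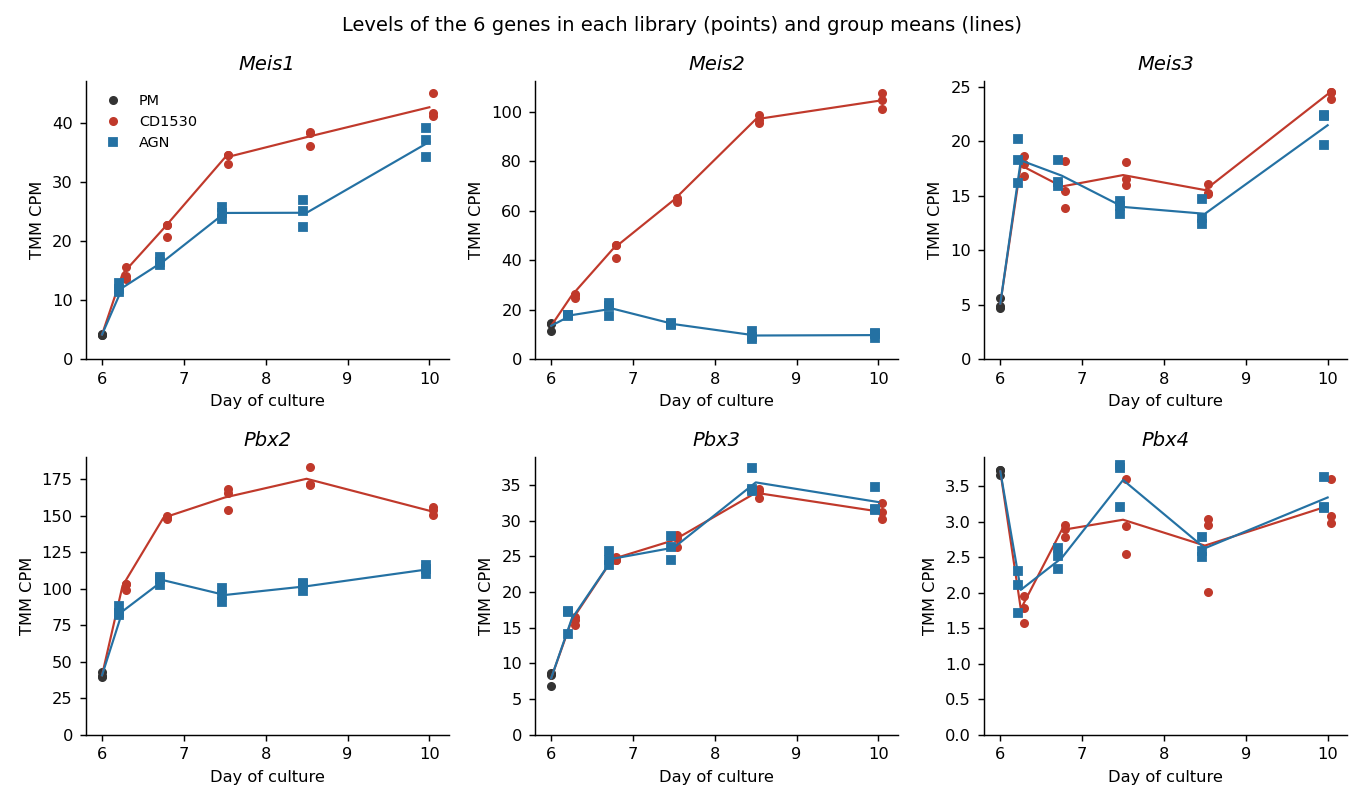
TMM CPM (y axis, from 0, a separate scale for each gene) against day of culture (x axis) for the 6 genes, with a point for each of the 33 libraries and lines through the group means. Meis2, Pbx2 and Meis1 are higher in CD1530 than in AGN, while the Pbx3 lines lie on each other.

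Pbx2, which encodes a widely expressed Pbx protein, had the highest level per kb of exon of the 6 genes. In PM its libraries read 40.1, 39.4 and 42.7 CPM. They read 103.2, 99.0 and 103.5 CPM in CD1530 and 88.0, 82.2 and 83.3 CPM in AGN at D6.25, and 149.6, 147.4 and 148.5 against 108.2, 102.8 and 106.3 CPM at D6.75. At D7.5 the values were 167.9, 165.2 and 154.1 CPM in CD1530 and 95.8, 90.9 and 100.3 CPM in AGN. All libraries of both conditions were above PM, and CD1530 was above AGN without overlap at each of these times. At D8.5 the libraries read 170.8, 171.7 and 183.1 CPM in CD1530 and 103.2, 98.2 and 103.6 CPM in AGN, and at D10 they read 153.7, 150.5 and 155.8 against 116.5, 113.7 and 109.9 CPM. The conditions stayed apart on both days.

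The fold of Pbx2 in CD1530 over AGN widened and then narrowed. It began at a log2 fold change of 0.27 ± 0.042 (adjusted p = 5.27e-05) on D6.25, was 0.49 ± 0.041 (1.98e-12) by D6.75 and came to 0.763 ± 0.041 (1.26e-18) and 0.785 ± 0.041 (1.76e-19) on the next days sampled. At D10 it was 0.435 ± 0.042 (1.05e-11). In CD1530 Pbx2 fell from D8.5 to D10 by 0.192 ± 0.041 (adjusted p = 9.65e-05), and in AGN it rose by 0.157 ± 0.042 (adjusted p = 0.00142). With scaling by library size only, that AGN rise was 0.056 and not called (adjusted p = 0.247). In PM the per-kb level of Pbx2 was 11.2 ± 0.47 CPM per kb (SD, n = 3), against 1.299 ± 0.163 for Pbx3 and 1.67 ± 0.018 for Pbx4. At D10 in CD1530 the 3 genes stood at 42.1 ± 0.742, 5.12 ± 0.183 and 1.45 ± 0.149 CPM per kb.

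Meis1, a Meis gene known from blood stem cells and leukaemia and from limb patterning, rose in both conditions. Its PM libraries read 4.02, 4.11 and 4.31 CPM. In CD1530 and AGN they read 14.1, 15.6 and 13.6 against 11.9, 12.9 and 11.4 CPM at D6.25, and 20.7, 22.7 and 22.7 against 17.2, 15.9 and 16.5 CPM at D6.75. At D7.5 they read 33.1, 34.6 and 34.5 against 25.8, 24.7 and 23.7 CPM. The PM mean was 4.15 CPM, so every library of either condition lay well above PM by then, and CD1530 lay above AGN with no overlap. The values were 38.2, 36.0 and 38.4 against 22.3, 25.1 and 26.9 CPM at D8.5, and 41.7, 41.1 and 45.0 against 39.0, 37.0 and 34.2 CPM at D10. The nearest libraries, at D10, read 41.1 CPM in CD1530 and 39.0 CPM in AGN, so the groups still did not overlap.

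The difference between conditions in Meis1 was 0.254 ± 0.080 on the log2 scale at D6.25 and did not pass the threshold (adjusted p = 0.0981, 95% interval 0.093 to 0.416). It passed at D6.75 (0.415 ± 0.072, adjusted p = 2.69e-05), then on D7.5 (0.465 ± 0.067, 4.14e-07) and D8.5 (0.613 ± 0.066, 3.12e-10). At D10 it was 0.213 ± 0.064 (adjusted p = 0.00579), and without AGN D10 replicate 3 it was 0.163 and not called (adjusted p = 0.0617). Against PM, Meis1 at D10 was higher by 3.36 ± 0.098 in CD1530 and by 3.15 ± 0.099 in AGN (adjusted p = 1.29e-31 and 3.25e-30), the largest rise of the 6 genes in each condition. In AGN the step from D7.5 to D8.5 was estimated at -0.01 with an interval of -0.147 to 0.127, and Meis1 rose by 0.582 ± 0.066 from D8.5 to D10 (adjusted p = 5.98e-10).

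Meis3, the least studied of the Meis genes, rose at the first step and again at the last in both conditions. Over the PM libraries it ranged from 4.74 to 5.66 CPM, and at D6.25 from 16.8 to 18.7 CPM in CD1530 and from 16.2 to 20.3 CPM in AGN, so the conditions overlapped. The rises from PM to D6.25 were 1.81 ± 0.111 and 1.84 ± 0.111 on the log2 scale (adjusted p = 1.47e-18 and 8.42e-19), and those from D8.5 to D10 were 0.647 ± 0.089 and 0.696 ± 0.089 (adjusted p = 4.33e-08 and 1e-08). At D10 the libraries ranged from 23.9 to 24.6 CPM in CD1530 and from 19.7 to 22.4 CPM in AGN.

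Between conditions Meis3 was called at D7.5 (0.272 ± 0.091, adjusted p = 0.0219) and at D8.5 (0.23 ± 0.092, 0.0443), and both calls were fragile. At D7.5 the adjusted p was 0.113 without CD1530 D7.5 replicate 1, 0.0504 without AGN D7.5 replicate 2 and 0.0961 without AGN D7.5 replicate 3. At D8.5 it was 0.0665, 0.144 and 0.0697 without CD1530 D8.5 replicates 1, 2 and 3 in turn, and 0.229 and 0.0874 without AGN D8.5 replicates 1 and 3. It was 0.0663 by DESeq2. At D10 the estimate was 0.18 ± 0.086 (adjusted p = 0.0823, interval 0.007 to 0.354). It was called with scaling by library size only (0.218, adjusted p = 0.0353) and with the compared groups alone in the fit (0.198, 0.0157). At D6.25 and D6.75 the intervals were -0.211 to 0.138 and -0.263 to 0.094, and without CD1530 D6.75 replicate 1 the D6.75 estimate was -0.195 (adjusted p = 0.142).

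Pbx3, a Pbx gene expressed in the developing nervous system and limb, rose with both ligands. It ranged from 6.80 to 8.66 CPM in PM, from 33.1 to 34.4 CPM in CD1530 and from 34.2 to 37.4 CPM in AGN at D8.5, and from 30.2 to 32.4 CPM and from 31.5 to 34.7 CPM at D10. Against PM the rise at D10 was 1.98 ± 0.084 in CD1530 and 2.04 ± 0.085 in AGN (adjusted p = 1.78e-24 and 8.34e-25). In both conditions the steps that were called were those to D6.25, D6.75 and D8.5. With scaling by library size only, a fall from D8.5 to D10 was called too, at -0.21 in CD1530 and -0.224 in AGN (adjusted p = 0.00782 and 0.00375). Between conditions it was not called at any of the 5 times by edgeR or DESeq2, the smallest unadjusted p being 0.314 at D8.5, and the libraries overlapped each time. The 95% intervals of the difference were -0.174 to 0.136, -0.143 to 0.136, -0.084 to 0.193, -0.198 to 0.065 and -0.198 to 0.078 from D6.25 to D10, so differences larger than 0.198 on the log2 scale in either direction lay outside all of them.

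Pbx4, known mainly from the testis, was the lowest of the 6 in CPM, with 35 to 103 reads a library. It fell from 3.66 to 3.73 CPM in PM to between 1.58 and 1.96 CPM in CD1530 and between 1.71 and 2.31 CPM in AGN at D6.25. The log2 fold changes were -1.066 ± 0.168 and -0.859 ± 0.165 (adjusted p = 3.85e-07 and 1.31e-05), and no other of the 6 genes fell at that step. At D10 it was at 3.22 ± 0.331 CPM (SD, n = 3) in CD1530 and 3.34 ± 0.246 CPM in AGN, with intervals against PM of -0.519 to 0.105 and -0.468 to 0.165. Between conditions it was not called at any time by edgeR or DESeq2 (smallest unadjusted p = 0.134, at D7.5), and the intervals were wide: the widest spanned -0.575 to 0.161 at D6.25 and the others lay within -0.546 to 0.542.

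Read together over the times, the counts of members called between CD1530 and AGN were 2 of 6 at D6.25, where 1.92% of all genes were called. They were 3 by D6.75 (18.0% of all genes), 4 on both D7.5 (26.9%) and D8.5 (40.0%), and 3 by D10 (46.6%). All these calls were toward CD1530. The median log2 fold change over the 6 members was 0.118, 0.314, 0.368, 0.421 and 0.197 in that order, against -0.003, -0.007, 0.008, 0.001 and -0.019 over all genes. At D10 the share of members called, 3 of 6, was near that of all genes.

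**Figure D2:**
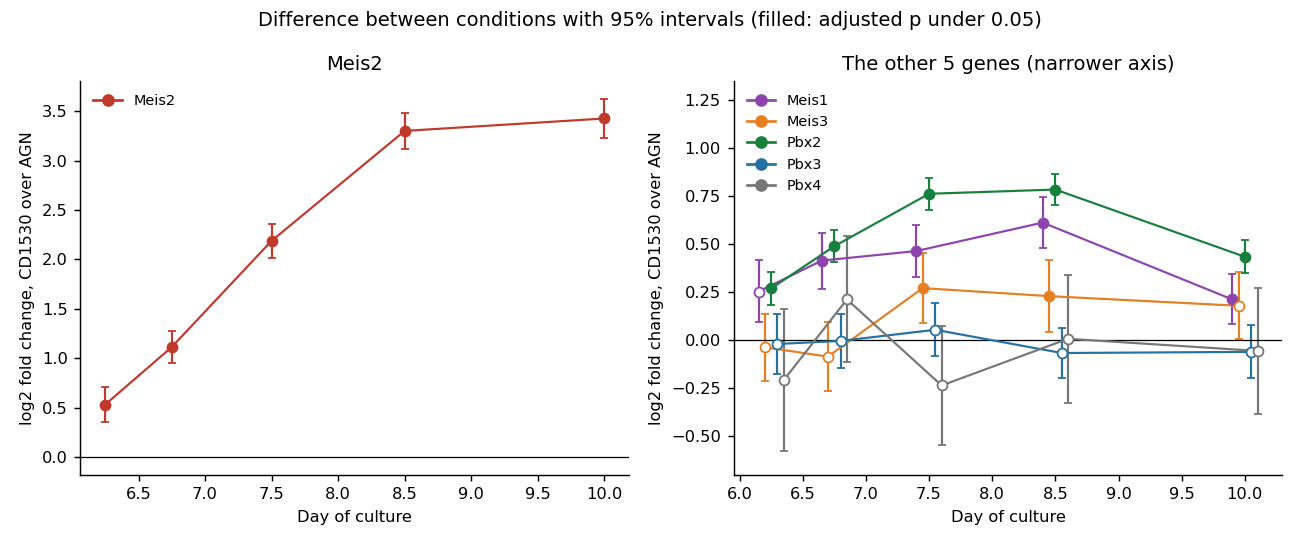
Log2 fold change of CD1530 over AGN (y axis) against day of culture (x axis) for Meis2 on the left and the other 5 genes on the right, on a narrower axis and with small horizontal offsets, with 95% intervals as bars and filled points where the adjusted p was under 0.05. Meis2 climbs from 0.53 to 3.43, Pbx2 and Meis1 peak at D8.5, and the Pbx3 and Pbx4 points are open throughout.

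Whether the difference between conditions changed over the 5 times was tested for each gene with 4 degrees of freedom, and 48.8% of all genes were called. Meis2 (adjusted p = 1.7e-22), Pbx2 (7.32e-10), Meis1 (0.00294) and Meis3 (0.0422) were called, while Pbx3 (0.767) and Pbx4 (0.393) were not. The Meis3 call held in 17 of 39 settings tried, with adjusted p-values from 0.00253, without CD1530 D6.75 replicate 1, to 0.0963, without AGN D6.75 replicate 3. The calls of the other 3 held in all 39.

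The first step, from PM to D6.25, moved all 6 members in both conditions, 5 up and Pbx4 down, at a time when 67.8% of all genes were called in CD1530 and 68.1% in AGN. These comparisons share the PM libraries. Markers of other cell states moved at the same step: the pluripotency sum went from 2340 to 2360 CPM in PM to 1130 to 1170 CPM in CD1530 and 1110 to 1140 CPM in AGN. The endothelial sum went from 103 to 108 CPM to 217 to 257 and 223 to 230 CPM, and the neural sum from 699 to 724 CPM to 551 to 566 and 569 to 580 CPM. Their part in the change of the members was not tested. From D6.25 to D6.75, 5 members rose in CD1530 (45.9% of all genes called) and 3 in AGN (43.7%): Meis1, Pbx2 and Pbx3 in both, with Meis2 and Pbx4 in CD1530. Without CD1530 D6.75 replicate 1, Meis3 fell as well at the CD1530 step (-0.277, adjusted p = 0.00801, against -0.166 and 0.118 with it), so that 6 members were called. From D6.75 to D7.5, Meis1, Meis2 and Pbx2 rose in CD1530 (34.2%). In AGN, Meis1 and Pbx4 rose and Meis2, Meis3 and Pbx2 fell (30.3%). Without AGN D7.5 replicate 2, the AGN step had 3 calls in place of 5, with Meis3 at an adjusted p of 0.0515 and Pbx2 at 0.0782. The Meis3 fall was also lost without AGN D7.5 replicate 3 (0.0922) and without AGN D6.75 replicate 3 (0.13). The CD1530 rise of Pbx2 at this step (0.128, adjusted p = 0.0118) was 0.104 (0.0777) without CD1530 D7.5 replicate 1, 0.115 (0.0535) without replicate 2 and 0.117 (0.19) with the compared groups alone in the fit.

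Each of the last steps had 3 of the 6 genes called. From D7.5 to D8.5, Meis2, Pbx2 and Pbx3 rose in CD1530 (36.5% of all genes called), and in AGN Pbx3 rose while Meis2 and Pbx4 fell (42.1%). The Pbx2 rise at this step, 0.11, was 0.065 (adjusted p = 0.213) with scaling by library size only, 0.077 (0.196) without CD1530 D8.5 replicate 3 and 0.073 (0.219) without CD1530 D7.5 replicate 3. The Pbx4 fall in AGN had an adjusted p of 0.0206, and of 0.0711, 0.0708 and 0.0573 without AGN D7.5 replicates 1 and 3 and AGN D8.5 replicate 2. From D8.5 to D10, Meis1 and Meis3 rose and Pbx2 fell in CD1530 (57.3%), and Meis1, Meis3 and Pbx2 rose in AGN (59.4%). The Meis1 rise in CD1530 at this step, 0.182, was 0.089 (adjusted p = 0.228) with scaling by library size only, 0.153 (0.0718) without CD1530 D8.5 replicate 2 and 0.142 (0.0895) without CD1530 D10 replicate 3. Over the whole induction, 5 of 6 members were called against PM in CD1530, all higher, where 83.2% of all genes were called. In AGN 5 were called, 4 higher and Meis2 lower, where 82.0% were.

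The order of the 11 group means differed by gene. For Meis2 it ran from CD1530 D10 down through the CD1530 times in reverse to AGN D6.75, AGN D6.25, AGN D7.5, PM, AGN D10 and AGN D8.5. Of the 10 pairs of neighbours in that order 7 did not overlap, and the pairs that did were AGN D6.75 and D6.25, AGN D7.5 and PM, and AGN D10 and D8.5. For Meis1 also 7 of 10 pairs were separate and for Pbx2 6, with PM lowest in both. For Meis3 and Pbx3 only 3 of 10 were separate, and for Pbx4 1, so most of their neighbouring groups lay within the spread of the libraries. The groups were ordered by their own means, and these counts were not set against those of all genes. In Pbx3 the breaks fell between times. Both conditions at D8.5 and D10 lay highest, then those at D7.5 and D6.75, then those at D6.25 and last PM.

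Because the 3 Meis proteins share a DNA-binding domain, their summed RNA per kb of exon was also formed. It was 3.12 ± 0.015 CPM per kb (SD, n = 3) in PM, 20.4 ± 0.34 in CD1530 and 11.1 ± 0.67 in AGN at D10. Meis3 held the largest part in PM, 51.5 ± 4.7%, with Meis2 at 35.9 ± 5.1% and Meis1 at 12.6 ± 0.4%. In CD1530 the share of Meis2 dipped to 23.4 ± 1.2% at D6.25, reached 48.8 ± 0.37% at D8.5 and was 42.5 ± 0.56% at D10. In AGN it went down to 7.32 ± 1.2% at D10, where Meis3 held 61.2 ± 1.3% and Meis1 31.5 ± 0.34%. The sum in AGN was 8.38 ± 0.61 at D6.25 and 7.35 ± 0.39 at D8.5, while in CD1530 it went from 9.11 ± 0.33 to 16.5 ± 0.17. These shares carry no test. They also rest on exons merged over all annotated transcripts, which need not be the lengths expressed in these cells. In CPM, without division by length, Meis2 was at 13.47 and Meis3 at 5.10 in PM. In AGN at D10 Meis1 was at 36.73 CPM and Meis3 at 21.48 CPM.

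**Figure D3:**
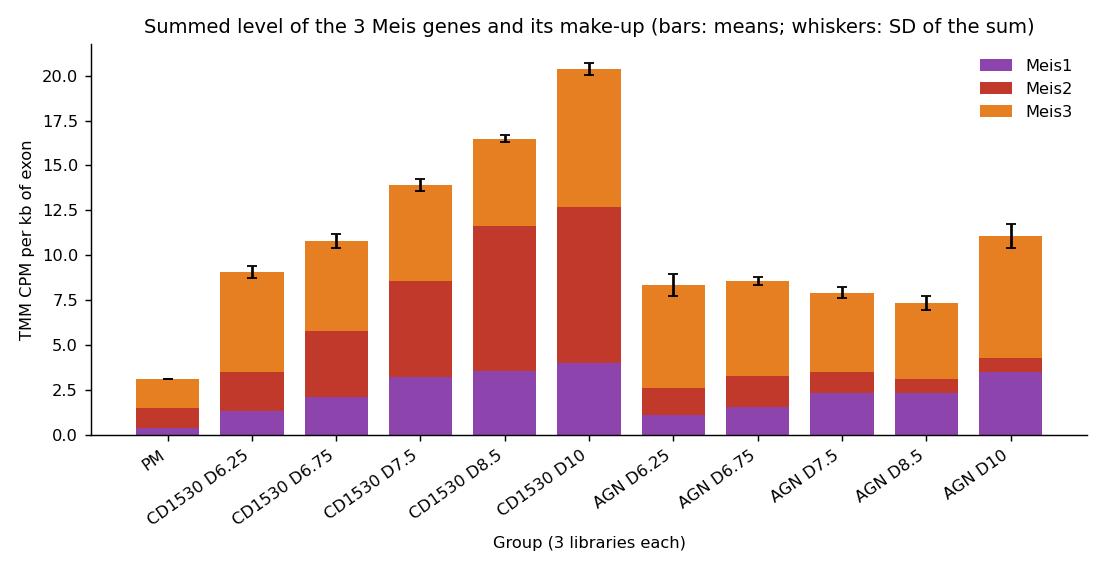
Summed TMM CPM per kb of exon of Meis1, Meis2 and Meis3 (y axis, from 0) in the 11 groups (x axis), as stacked bars of group means with the SD of the sum over 3 libraries as whiskers. Exons were merged over all annotated transcripts, and the size of each part depends on that length. The Meis2 part is 8.68 CPM per kb in CD1530 at D10, while in AGN it goes from 1.12 in PM to 1.70 at D6.75 and 0.81 at D10, and at D10 Meis1 and Meis3 stand at 4.04 and 7.67 CPM per kb in CD1530 and at 3.49 and 6.77 in AGN.

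The other TALE genes taken here were Pknox1 and Pknox2, which are relatives of Meis that also bind Pbx, Tgif1 and Tgif2, which are repressors that limit TGFβ and retinoid responses, Irx1, Irx2, Irx3 and Irx5 of the Iroquois family, and Mkx, a tendon regulator. With Pbxip1, a Pbx-binding protein that is no homeobox gene, they make a list of 10. Between conditions at D10, 5 of the 10 were higher in CD1530, 3 were lower and 2 were not called, with a median log2 fold change of 0.15 against -0.019 over all genes. The 4 Irx genes were among the higher ones, for example Irx2 at 14.9 ± 0.60 CPM (SD, n = 3) against 6.88 ± 1.6 CPM (log2 fold change 1.12, adjusted p = 8.05e-11). Pknox2 was lower, at 58.6 ± 2.3 against 86.9 ± 2.5 CPM (-0.57, adjusted p = 3.11e-12), and so was Tgif1, at 60.7 ± 3.5 against 81.1 ± 6.0 CPM (-0.42, 3.31e-10). Mkx measured 36.7 ± 2.1 and 37.2 ± 3.1 CPM (-0.02, adjusted p = 0.869). Earlier the list differed. At D6.25 Pknox2 was higher (0.27, adjusted p = 0.00311). At D6.75 4 genes were lower in CD1530, Irx5 (-0.95, 2.08e-07), Irx3 (-0.35, 0.0278), Irx1 (-0.27, 0.0185) and Pbxip1 (-0.31, 2.01e-06), and the others were not called. At D7.5 Irx5, Irx1, Tgif1 and Pbxip1 were lower and Mkx was higher (0.62, 1.48e-06), and at D8.5 3 were higher and 2 lower.

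Hox genes, whose products the Meis and Pbx proteins partner, were mostly higher in CD1530 in groups 1 to 8 and of mixed direction in groups 9 to 13. Of the 11 genes of groups 1 to 4 in the table, 2, 7, 10, 9 and 8 were higher over the 5 times from first to last, and the rest were not called. Their median log2 fold change at D10 was 0.7, and single genes ran from -0.02 to 9.05, the highest being a gene with few reads in AGN. Of the 11 genes of groups 5 to 8, 1, 5, 7, 10 and 10 were higher at the same times and the rest were not called. Their median at D10 was 1.49, and single genes ran from -0.11 to 3.66. Of the 16 genes of groups 9 to 13, 2 were higher and 1 lower at D6.75, against 1 and 2 at D7.5 (median -0.12), 5 and 4 on D8.5 (0.17), then 7 and 1 by D10 (0.61). At D6.25 their median was -0.15. Hoxb3, a gene of the hindbrain and neck levels of the axis, was at 17.0 ± 0.52 CPM (SD, n = 3) in CD1530 and 13.7 ± 1.6 CPM in AGN at D10 (log2 fold change 0.31, adjusted p = 0.0189).

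Most genes of retinoid handling and direct receptor targets were higher in CD1530 than in AGN. Of 12, 7 were higher at D6.25, 11 on each of the next 3 days sampled and 9 at D10, and 1 was lower, at D8.5. The median log2 fold change was 0.61 at D6.25 and 3.22 at D10. Cyp26a1, which degrades retinoic acid, was at 169 CPM in CD1530 and 2.45 CPM in AGN at D10 (log2 fold change 6.11, adjusted p = 6.33e-41), and Rarb, a receptor gene with a response element in its own promoter, was at 56.2 and 1.12 CPM (5.63, 8.15e-31). The Meis2 difference at D10, 3.43, lay near the median of this list, and those of Pbx2 and Meis1, 0.435 and 0.213, lay below it.

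**Figure D4:**
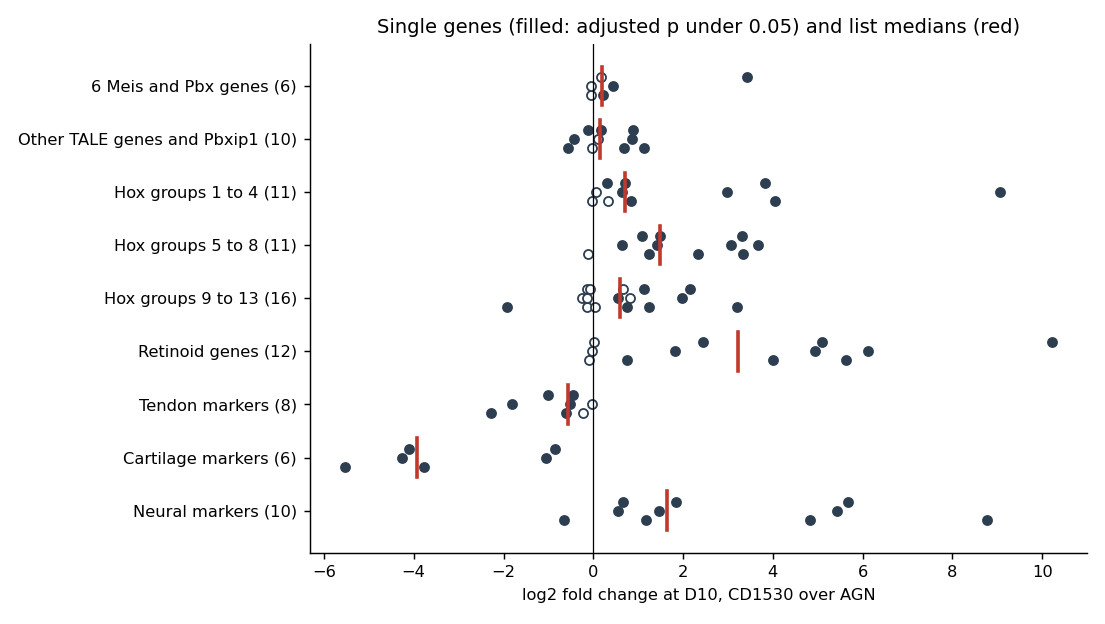
Log2 fold change of CD1530 over AGN at D10 (x axis) for each gene of 9 lists (y axis, number of genes in brackets), with filled points where the adjusted p was under 0.05 and a red line at each list's median. The retinoid genes have the highest median, 3.22, and the cartilage markers the lowest, -3.94; points beyond 8 are genes at or near 0 reads in AGN, whose fitted size depends on the fit.

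Markers of other cell states moved with the conditions beside the members. At D10, 9 of 10 neural markers were higher in CD1530 and 1 was lower, and their summed level was 816 to 829 CPM in CD1530 and 505 to 539 CPM in AGN, most of it from Nes and Sox2. Of the defining neural genes, Neurog2 was at or under 3 reads in every AGN library at D10 and at 2.64 CPM in CD1530, and Sox1 was at 16.0 and 0.367 CPM. At D6.25, when Meis2 and Pbx2 were already called, the adjusted p-values of the 10 neural markers ran from 0.403 to 0.939 (edgeR), and their sums were 551 to 566 and 569 to 580 CPM. At D7.5, 4 were higher and 2 lower, with sums of 729 to 743 and 676 to 704 CPM. At D8.5, 5 were higher and 1 lower, with a median log2 fold change of 0.47 over the 10, though the sums overlapped (822 to 868 and 787 to 856 CPM). All 6 cartilage markers were lower in CD1530 at D10, with sums of 749 to 763 against 3980 to 4170 CPM, and none of the 6 was at the floor in either. Of 8 tendon markers, 6 were lower in CD1530 and 2 not called. Endothelial markers summed to 426 to 447 CPM in CD1530 and 259 to 286 CPM in AGN at D7.5, and at D10 to 155 to 170 against 143 to 153 CPM, with 3 of 6 higher and 2 lower, and lateral plate and limb markers to 114 to 116 against 165 to 177 CPM, with 3 of 5 higher and 1 lower. The part of these cell states in the differences of the members was not tested.

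Genes with the most similar pattern were sought by Pearson's correlation with each member over the 11 group means of log2(CPM + 1), among 11296 genes with a mean of at least 5 CPM. This is a description, since the points share libraries and time. For Meis2 they were Ccdc88b (r = 0.9773) and Dhrs3 (0.9661). For Meis1 they were Hoxb3 (0.9945), Zfp423 (0.9922) and Col15a1 (0.9862). Pbx3 was most like Scx (0.9950), then Crmp1 (0.9932) and Rin3 (0.9928), and Pbx2 was most like Adora2a (0.9856), Ppp1r18 (0.9729) and Ier5l (0.9724). Meis3 went with Sh3pxd2b (0.9809), Nradd (0.9791) and Ppp3ca (0.9780). The values for Pbx4 were lower, with Flywch2 (0.9044) first, Zfp235 (0.9015) and Pih1d1 (0.9014).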

How the data were processed

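RNA sequencing was carried out by the authors on 33 cultures in 11 groups of 3. Per the labels and the study's methods, reads were aligned to GRCm38 with STAR and assigned to genes with featureCounts, which gave the deposited counts, 1 row a gene, with no normalization. The annotation release and the treatment of reads with several alignments are not given in the sources used here. Of the 17120 gene identifiers, all 17120 matched GENCODE M21, which gave positions and exon lengths. Totals of the counts assigned to genes ran from 17.1 M to 38.1 M a library, which is not the number of reads sequenced. That range limits the precision for genes with few reads, and counting errors cover reads, not molecules.

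The robust quasi-likelihood F test of edgeR 4.0.16, run under R 4.3.3 beside limma 3.58.1, was applied after TMM scaling in 1 fit with a mean for each group. Benjamini-Hochberg adjustment was made separately for the 18 contrasts over all genes. The filter of edgeR removed 0 genes. Intervals are 95%. Alternatives were DESeq2 1.42.0, other scalings and filters, a replicate block, the compared groups alone and each library left out. Sequences were read with Python 3.11.15 from RefSeq promoter and GENCODE transcript tables. Figures were drawn with matplotlib 3.10.9.

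Named genes were the 6 members, genes of the lists given in the text, and up to 3 genes most like each member. The members and lists were chosen with earlier results of these data known. Some genes that these rules would name are not reported here. The protein sequences were not used here.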

Additional observations from a re-analysis of the deposited data

Results flagged for a closer look

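In 4 of the 6 genes the gap between the conditions changed over the 5 time points, where 48.8% of all genes were called in the same test. By edgeR's quasi-likelihood F test with 4 degrees of freedom, the adjusted p was 1.7e-22 for Meis2, 7.32e-10 for Pbx2, 0.00294 for Meis1 and 0.0422 for Meis3. The Meis2 difference widened from D6.25 to D10, those of Pbx2 and Meis1 were widest at D8.5 and smaller at D10, and the Meis3 call was lost in 22 of 39 settings.

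Meis2 was called against PM at D10 in opposite directions in the 2 conditions, at a log2 fold change of 2.949 in CD1530 and -0.478 in AGN. Both comparisons use the same PM libraries. The difference itself is the comparison of CD1530 with AGN at D10, which was called at 3.43 ± 0.098 (adjusted p = 1.31e-28, edgeR).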

How the results depend on the processing

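Meis2 and Pbx2 were called between conditions at all 5 times under every setting tried: TMM or DESeq2 size factors or library size alone, filtering at 1 CPM in 3 libraries or not at all, a non-robust fit, DESeq2, the compared groups only, the replicate block and each library left out. Library size alone moved the median of all genes by -0.112 for CD1530 D10 against PM and by -0.149 for AGN D10 against PM on the log2 scale. Reversed signs were confined to estimates that passed no threshold as reported. With DESeq2 size factors Pbx4 at D8.5 between conditions was -0.004 and Meis2 in AGN from D8.5 to D10 was 0.015, and by the DESeq2 test they were -0.005 and 0.023. Pbx3 at D6.75 was 0.009 with library size alone and 0.005 with the compared groups only. With 1 library left out, estimates between conditions ran from -0.117 to 0.045 (Meis3) and -0.111 to 0.031 (Pbx3) at D6.25, from -0.195 to 0.001 (Meis3) and -0.026 to 0.027 (Pbx3) at D6.75, and from -0.101 to 0.175 at D8.5 and -0.14 to 0.006 at D10 (Pbx4). Steps with sign changes were Pbx4 in CD1530 from D6.75 to D7.5 (-0.076 to 0.191), Meis1 in AGN from D7.5 to D8.5 (-0.076 to 0.073) and Meis2 in AGN from D8.5 to D10 (-0.103 to 0.185). The count of members called in AGN from D6.75 to D7.5 ran from 3 to 5. The cause was not tested.

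Same-numbered libraries of the 2 conditions did not deviate together (r from -0.082 to 0.045 in 15 pairs, 0 of them over 0.1), and in 2 of 15 the best match was the own number. With the replicate block the members called between conditions at D8.5 were 3 in place of 4, and those whose difference changed over time were 3 in place of 4, Meis3 having adjusted p-values of 0.0533 and 0.0558. The block changed none of the other 16 counts. Depth limits Pbx4 most, with 35 to 103 reads a library.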
